A study of Homo sapiens with 18 samples.

Results

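Translation factors are the soluble proteins that work with the ribosome while an mRNA is read. Initiation factors, with symbols in EIF, bring the initiator tRNA, the mRNA cap and the small ribosomal subunit together and place them on a start codon. Elongation factors, with symbols in EEF, then deliver charged tRNAs and move the ribosome along the mRNA one codon at a time. Their genes were examined here in human pancreatic progenitors derived from embryonic stem cells. The members were all genes of the deposited table whose symbol is EEF or EIF followed by a digit and then capital letters or digits, apart from symbols that end in P and a number. This rule found 62 of 21944 listed genes, of which 12 were EEF genes and 50 were EIF genes, and it used no measured value. It also takes in enzymes and binding proteins that act on the factors, and it leaves out the repressors *EIF4EBP1*, *EIF4EBP2* and *EIF4EBP3*, whose symbols end like those of pseudogenes.

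The study reseeded the progenitors on wells coated with LN411, a laminin isoform, or with fibronectin (FN), and harvested them 3, 6 or 24 h later, with 3 samples in each of the 6 groups and 18 samples in all. All groups were detached with accutase before reseeding. The labels name the HUES4 line, while the growth protocol names NGN3-GFP cells made from the SA121 line, which carry a reporter for *NEUROG3*. The measure used was the mean normalized count of a gene, which the authors averaged over all 18 samples after correction for sequencing depth. It gives one value per gene over both matrices and all times, so that LN411 and FN were not compared here. The spread between samples and the depth of each library are unknown for these values. An order of genes is therefore a description without a test, and no neighbours in it can be said to differ beyond their spread. To compare genes with one another, the mean normalized count was divided by the length of a representative transcript in kilobases, and this quantity is termed the level below.

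The label of the cells was checked against markers. Of 8 pancreatic progenitor markers, 7 had levels above the median of all genes, including *GP2* at 40743 counts per kilobase, *SOX9* at 5259 and *PDX1* at 4969, and the exception was *PTF1A* at 8.10. The level of *CHGA*, an endocrine granule protein, was 2172, that of *NEUROG3* was 289, and those of *INS* and *GCG* were 17.9 and 14.5. Of 3 acinar markers, 2 were listed, with levels of 2986 for *PRSS1*, a trypsinogen gene, and 74.2 for *CPA1*. Of the mesenchyme markers, *COL1A1* was at 692, *PDGFRA* at 136 and *COL3A1* at 58.3, and of the endothelial markers *PECAM1* was at 11.0 and *CDH5* at 1.26. In bulk samples, fewer cells of a type and less RNA per cell cannot be told apart, and the part of such cells in the levels of the translation factors was not tested.

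The starts of several translation factor genes carry a known sequence feature, which is shown before the levels. Many mRNAs of the translation machinery begin with a terminal oligopyrimidine tract, a C at the first base followed by an unbroken run of C and T. Such mRNAs are known for translation that follows mTOR activity. RefSeq start sites of GRCh38.p14 were matched by symbol, and starts of 50 of the 62 members were used. These 50 are termed matched below. The 12 others include *EEF1D*, *EIF3E* and *EIF3H*, whose starts were left out by a filter on their chromosome. For these genes a tract was not looked for, so the set of matched members was not decided by RefSeq alone. Windows of 30 bases around the start, with 15 bases before it, are printed below from 5′ to 3′ on the strand of the gene, and capitals mark the pyrimidine run from the first transcribed base where it is at least 5 bases long and opens with C. They show the 3 matched elongation factors with such a tract, the helicase gene *EIF4A2* and the cofactor gene *EIF4B*, a closely related pair of genes, and 2 genes without it.
EEF1A1 (chr6:73521018-73521047, minus strand): gtcgccgtgaacgttCTTTTTCgcaacggg
EEF2 (chr19:3985449-3985478, minus strand): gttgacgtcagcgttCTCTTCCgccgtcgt
EEF1B2 (chr2:206159880-206159909, plus strand): ccggtctcttcgggtCCTTTTTCCTCTCTT
EIF4A2 (chr3:186783562-186783591, plus strand): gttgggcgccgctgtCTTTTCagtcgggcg
EIF4B (chr12:53006441-53006470, plus strand): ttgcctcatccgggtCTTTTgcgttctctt
EIF2S3 (chrX:24054941-24054970, plus strand): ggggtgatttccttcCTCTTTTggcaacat
EIF2S3B (chr12:10505875-10505904, plus strand): ggggtgactttcttcCTCTTTTggcaacat
EEF1E1 (chr6:8102534-8102563, minus strand): tgttctgcaggtctcgcgtctgccaggagc
EIF4E (chr4:98929119-98929148, minus strand): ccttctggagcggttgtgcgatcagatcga

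A tract of this kind at one or more annotated starts was found for 13 of the 50 matched members, or 26%, against 5.14% of all genes with an annotated start and 4.07% of all annotated starts. Among the elongation factors it was present for *EEF1A1*, *EEF2* and *EEF1B2*, which are 3 of the 4 matched, and it was absent from the annotated starts of the 3 matched enzymes. Among the matched initiation genes, 10 of 39 factors had it and 0 of 4 kinases and binding proteins. The matched *EIF* genes with a tract were *EIF4A2*, *EIF3K*, *EIF3D*, *EIF4B*, *EIF2S3*, *EIF2D*, *EIF3F*, *EIF3M*, *EIF2A* and *EIF2S3B*. The median level was 3329 for the 13 members with a tract and 1072 for the 37 without it, which include all matched enzymes and binding proteins. Over the factors alone, the medians were 3329 with a tract and 1281 without. Over the EIF factors they were closer, at 1910 and 1309. The only matched elongation factor without a tract was *EEF1E1*, which is counted as one by its symbol. Over the 8 matched eIF3 subunits the order was the other way, with a median of 2349 for the 4 with a tract and 3127 for the 4 without. The run was 7 bases long in *EEF1A1* and *EEF2*, 16 in *EEF1B2*, reaching past the printed window, 6 in *EIF4A2* and 5 in *EIF4B*. *EEF1B2* and *EIF2S3B* each have a further annotated start without the tract, and the data do not tell which start these cells use. *EIF2S3* and *EIF2S3B*, a near copy on another chromosome, both have a run of 7 bases at an annotated start, and their levels were 2576 and 4.42. A match to these letters is a description of the annotated start, and it was not tested whether it has a part in the level.

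The members lay high among all genes. Together they held 1.55% of the 53217583 mean normalized counts in the table, and 53 of the 62 had a level above 115 counts per kilobase, the median of all genes. A level above the 95th percentile of all genes, 3179, was reached by 20 members. The median level was 1248 over all members, with a lowest value of 4.42 for *EIF2S3B* and a highest of 64535 for *EEF1A1*. Their sum was uneven, since *EEF1A1* held 23.6% of the summed level of all members, *EEF2* 16.5% and *EIF4G2* 9.47%.

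**Figure D1:**
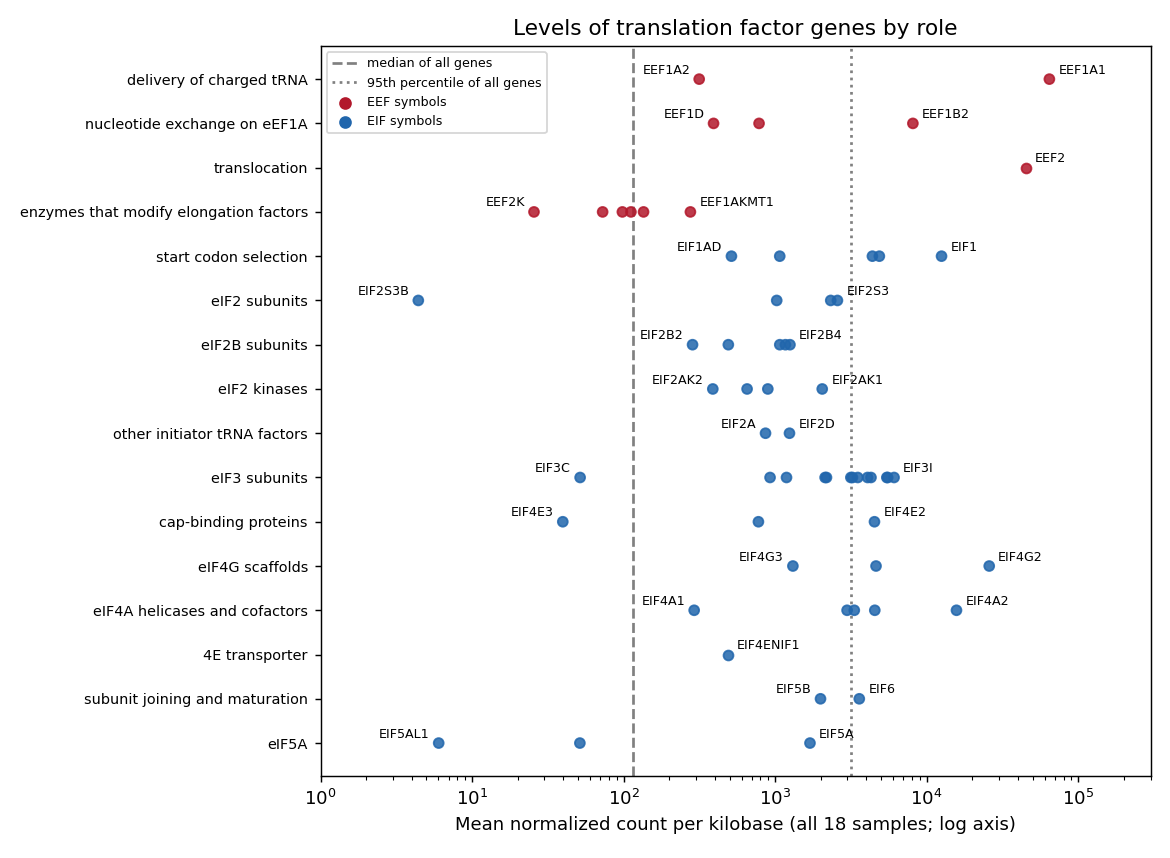
Mean normalized count per kilobase of each of the 62 genes (log axis), by role, with the highest and lowest gene of each role named, EEF symbols in red and EIF symbols in blue. *EEF1A1* at 64535 and *EEF2* at 44969 stand to the right of all initiation genes, and most points lie above the median of all genes, 115, drawn as a dashed line.

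The most abundant elongation factor was *EEF1A1* (ENSG00000156508, chromosome 6 of GRCh38, 73489308 to 73525587), which encodes the protein that carries charged tRNAs to the ribosome. Its mean normalized count was 226648 over a representative transcript of 3512 bases. *EEF2* (ENSG00000167658, chromosome 19, 3976056 to 3985463), which encodes the GTPase that moves the ribosome by a codon, had a mean normalized count of 142012 and a level of 44969. The level of *EEF1A1* was 1.44 times that of *EEF2*. This order depends on the length, since the ratio was 0.982 with the longest transcript of each gene and 0.638 with the merged exons of all its transcripts. The paralog *EEF1A2*, known for its expression in neurons and muscle, had a level of 315, which is 205-fold lower than that of *EEF1A1*, or 316-fold with the longest transcripts, and still above the median of all genes.

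Genes for the exchange factor that recharges eEF1A with GTP differed widely. *EEF1B2*, the catalytic subunit, had a level of 8108. *EEF1D*, another exchange subunit, had a level of 392, and *EEF1E1*, which is better known as a part of the tRNA synthetase complex, had one of 783. The *EEF1D* transcript overlaps exons of other genes on the opposite strand, which leaves 65.5% of its bases to itself, and 62.5% of the *EEF1E1* transcript is free of other genes. With the length of this unshared part alone, the level was 599 for *EEF1D* and 1253 for *EEF1E1*, below *EEF1B2* in each case. The subunit gene *EEF1G* was not among the members found by the rule, so the medians of the EEF genes are without it.

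The other 6 EEF symbols belong to enzymes that modify elongation factors, and their levels lay between 25.6 and 276. *EEF2K*, the kinase that phosphorylates eEF2 and slows elongation, had the lowest level of all EEF genes. Without division by length the lowest was *EEF1AKMT4*, with a mean normalized count of 109 against 189 for *EEF2K*. The target of this kinase, *EEF2*, was 1756-fold above *EEF2K*, or 1497-fold with merged exons and 750-fold in mean normalized counts. Methyltransferases of eEF1A ranged from 72.7 for *EEF1AKMT2* through 98.1 for *EEF1AKMT3* and 112 for *EEF1AKMT4* to 276 for *EEF1AKMT1*. *EEF2KMT*, which methylates eEF2, had a level of 135. Of these 6 enzymes, 2 were above the median of all genes.

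The comparison of elongation with initiation symbols moved with these enzymes. Taken as the rule gives them, the 12 EEF genes had a median level of 296 and the 50 EIF genes one of 1845, a ratio of 0.160. Without the enzymes and binding proteins, the 6 elongation factors had a median of 4446 and the 45 initiation factors one of 2136. The ratio was then 2.08. These groups follow the symbols, so *EEF1E1* counts as an elongation factor, and *EIF5A*, *EIF4A3* and *EIF1AD* count as initiation factors. Medians for a grouping by function were not computed. This ratio of the factors was 2.41 with the longest transcripts and 2.10 with merged exons. Without division by length it was 0.766, from medians of 3686 and 4808 mean normalized counts, so the higher median of the elongation factors also depended on counting per length. By sums, the 12 EEF genes came to 119822 counts per kilobase and the 50 EIF genes to 153346. Without *EEF1A1* and *EEF2*, the other 4 elongation factors had a median of 588, and without *EIF4G2* and *EIF4A2* the other 43 initiation factors had one of 1992. The higher median of the elongation factors per length thus rests on *EEF1A1*, *EEF2* and *EEF1B2*, and the other 3 lay below the median of the initiation factors.

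**Figure D2:**
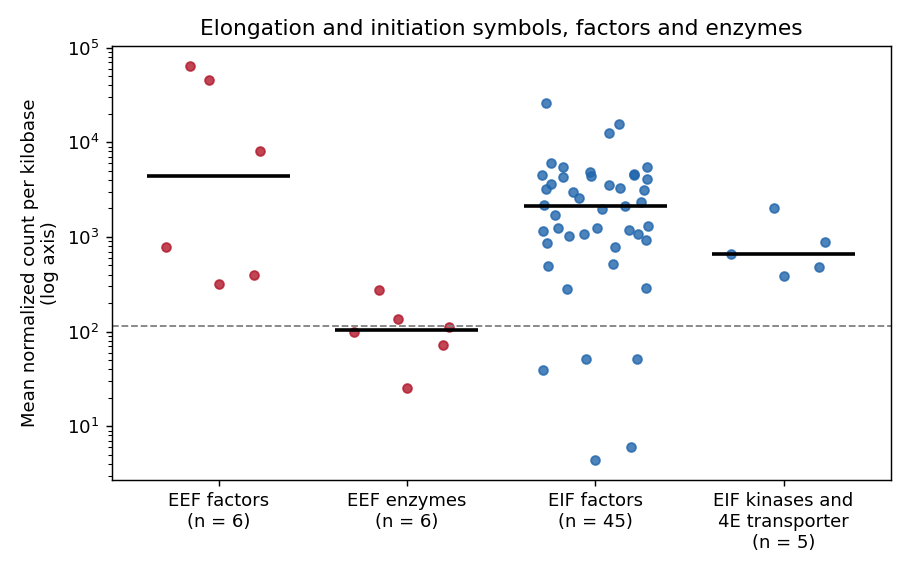
Mean normalized count per kilobase (log axis) of 6 elongation factors, 6 enzymes with EEF symbols, 45 initiation factors and 5 kinases and binding proteins with EIF symbols. Each point is a gene, black bars are group medians of 4446, 105, 2136 and 653, and the dashed line is the median of all genes.

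Genes grouped under the selection of the start codon had levels on both sides of the median of the EIF genes. *EIF1*, which guards the accuracy of start codon choice, had a level of 12532 (mean normalized count 29299). Its paralog *EIF1B* had a level of 4872, a 2.57-fold difference. *EIF5*, which activates the GTPase of eIF2, had a level of 4383, and *EIF1AX*, which works beside eIF1 in scanning, had one of 1072. *EIF1AD*, placed in this group only by its symbol, which names its similarity to eIF1A, was lowest of this group at 515.

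The 3 genes of eIF2, which carries the initiator tRNA, had similar levels. *EIF2S3* was at 2576, *EIF2S2* at 2327 and *EIF2S1* at 1024, within a range of 2.52-fold. The near copy *EIF2S3B* was at 4.42. Genes for eIF2B, the complex that recharges eIF2 with GTP, had levels of 285 for *EIF2B2* and 491 for *EIF2B3*. *EIF2B5* was at 1073, *EIF2B1* at 1169 and *EIF2B4* at 1252, which made a range of 4.39-fold over the complex. All 5 were below *EIF2S3* and *EIF2S2*, but *EIF2B5*, *EIF2B1* and *EIF2B4* were above *EIF2S1*. With the longest transcripts or merged exons, *EIF2B4* was at 480 and 396 and *EIF2B1* was the highest of the 5, while *EIF2B2* stayed the lowest. Of *EIF2A* and *EIF2D*, which can deliver initiator tRNA by other routes, the levels were 864 and 1243. This order depended on the length, since they were at 864 and 479 with the longest transcripts and at 568 and 310 with merged exons. Their mean normalized counts were 3351 and 2500.

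The kinases that phosphorylate eIF2 and lower initiation under stress were all above the median of all genes. *EIF2AK1*, activated by lack of haem, had the highest level at 2045. *EIF2AK4*, which senses uncharged tRNA, was at 895, *EIF2AK3*, which senses stress of the endoplasmic reticulum, at 653, and *EIF2AK2*, which binds double-stranded RNA, at 388. The range from *EIF2AK1* to *EIF2AK2* was 5.27-fold. With merged exons, *EIF2AK3* was the lowest at 143 and the range was 11.5-fold.

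Subunits of eIF3, the largest initiation complex, which holds the small ribosomal subunit and the mRNA, formed the largest group with 13 genes. Their median level was 3237. The highest was *EIF3I* at 6093, followed by *EIF3G* at 5530 and *EIF3E* at 5457. The middle of the group held *EIF3K* at 4290, *EIF3B* at 4072, *EIF3D* at 3511, *EIF3A* at 3237 and *EIF3L* at 3159. Lower levels were found for *EIF3J* at 2181, *EIF3H* at 2136, *EIF3F* at 1188 and *EIF3M* at 926. These 12 genes lay within a range of 6.58-fold. Their order held for the representative transcripts alone, since the highest was *EIF3G* at 4008 with the longest transcripts and *EIF3A* at 3038 with merged exons, where *EIF3E* was the lowest of the 12 at 292. *EIF3C*, a core subunit, stood apart at 51.6, which is below the median of all genes, and it was the lowest of the 13 under each of these lengths.

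The low value of *EIF3C* and that of the helicase gene *EIF4A1* go with sequence that other genes share. The authors' counting tool, STAR, counts a read for a gene when it maps to one place and to one gene, so each transcript was searched for windows of 50 bases that also occur in an annotated transcript of another gene. Such windows made up 98.8% of the *EIF3C* transcript, all of them in its near-identical copy *EIF3CL*. They made up 100% of the *EIF4A1* transcript, whose bases all lie in exons that other genes have on the same strand. Over all members, 21 transcripts had no such window, 20 had more than 10% and 4 had more than 50%, the other two being *EEF1B2* at 62.2% and *EIF3L* at 56.6%. High sharing did not always go with a low level, as *EEF1B2* and *EIF3L* had levels of 8108 and 3159. In the *EIF3L* transcript, 41.5% of the bases are free of other genes, and with the length of this part alone its level was 7610. By that measure *EIF3L* was above *EIF3I* at 6093 and *EIF3G* at 6180. The values of *EIF3C* and *EIF4A1* are uncertain for this reason, and its part in their levels was not tested. *EEF1A1* shares 37.2% of its windows with other genes, and 49 of its pseudogenes are annotated. The 5 of these that were listed had mean normalized counts that summed to 0.0466% of that of *EEF1A1*. A read that maps to several places is counted for no gene, so this share cannot show how far shared sequence alters the value of *EEF1A1*.

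**Figure D3:**
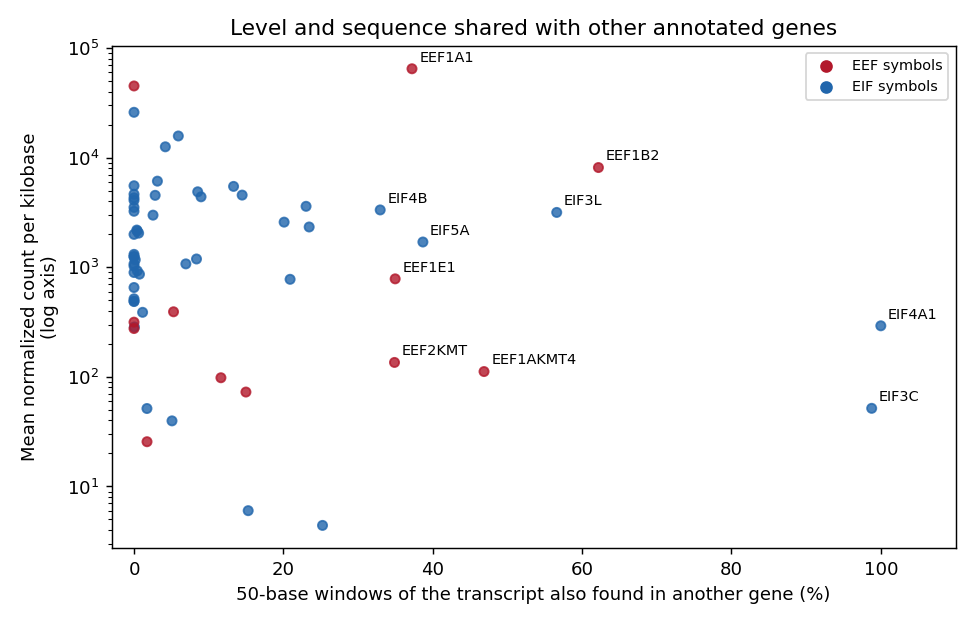
Share of 50-base windows of each gene's representative transcript that also occur in an annotated transcript of another gene (percent) against the mean normalized count per kilobase (log axis), for 62 genes. *EIF4A1* at 100% and *EIF3C* at 98.8% lie alone on the right with levels of 292 and 51.6, while *EEF1B2* and *EIF3L* share over 50% and have levels of 8108 and 3159.

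Genes of the cap-binding complex differed in level between paralogs. *EIF4G2* (ENSG00000110321, chromosome 11, 10797050 to 10808940), a scaffold that lacks the binding site for eIF4E, was the most abundant initiation gene with a mean normalized count of 98142 and a level of 25868. The canonical scaffold *EIF4G1* was at 4632 and *EIF4G3* at 1309, so that *EIF4G2* was 5.59-fold above *EIF4G1*. This order was kept with the longest transcript, at 3.28-fold, and with merged exons, at 4.04-fold. *EIF4A2*, an RNA helicase, had a level of 15730 and *EIF4A1*, its close paralog, one of 292 with the uncertainty described above. *EIF4A3*, a relative that works in the exon junction complex, was at 2983. The helicase cofactors *EIF4H* and *EIF4B* were at 4546 and 3329.

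The cap-binding protein gene *EIF4E* had a level of 775. *EIF4E2*, a relative that binds the cap and is known as a repressor, was at 4523, and *EIF4E3* was at 39.7. The gap between *EIF4E2* and *EIF4E* depended on the length used, since it was 5.83-fold with the representative transcript of *EIF4E2*, 1.16-fold with the longest transcripts and 1.01-fold with merged exons. Their mean normalized counts were 4374 and 1882. *EIF4ENIF1*, which carries eIF4E into the nucleus, had a level of 486.

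**Figure D4:**
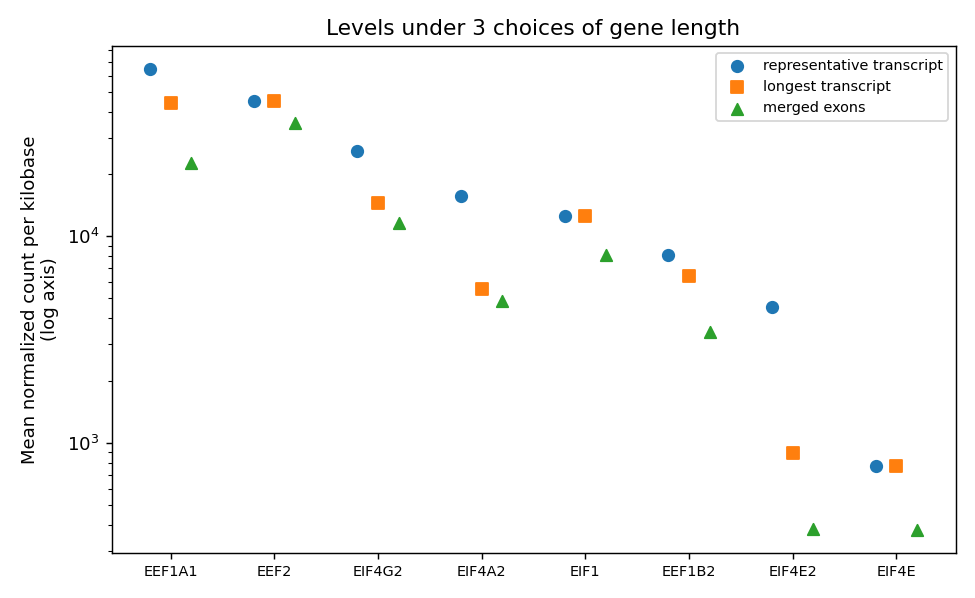
Mean normalized count per kilobase (log axis) of 8 genes with the length of the representative transcript (circles), the longest transcript (squares) or the merged exons (triangles). *EEF1A1* is above *EEF2* only for the circles, and *EIF4E2* comes close to *EIF4E* for the squares and triangles.

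Of the remaining members, *EIF5B*, which joins the ribosomal subunits, had a level of 1992. *EIF6*, which keeps the large subunit from joining too early, was at 3592. *EIF5A*, which carries the amino acid hypusine and helps ribosomes through difficult stretches, was at 1697. Its paralog *EIF5A2* was at 51.4, a difference of 33.0-fold that was 15.6-fold with merged exons and 7.54-fold in mean normalized counts. The copy *EIF5AL1* was at 6.02. Windows shared with other genes made up 38.7% of the *EIF5A* transcript, 15.3% of *EIF5AL1* and 1.73% of *EIF5A2*. The part of this sharing in their levels was not tested.

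Other genes of the pathway were read from a list of 32, of which 31 were listed. Their median level was 744, and 27 were above the median of all genes. The highest was *PABPC1*, which binds the poly(A) tail, at 31436, between *EEF2* and *EIF4G2*. The repressors of eIF4E *EIF4EBP1* and *EIF4EBP2* had levels of 3212 and 2255, which are 4.14 and 2.91 times that of *EIF4E*, or 7.97 and 5.96 times with merged exons. In mean normalized counts the ratios were 1.41 and 8.98, so the order of the repressors depended on division by length. Release factors were at 2852 for *ETF1* and 1433 for *GSPT1*. *DHPS* and *DOHH*, the enzymes that make hypusine on eIF5A, were at 92.6 and 530. Among the mitochondrial factors, *TUFM*, which delivers tRNA in mitochondria, was at 5315, and *TSFM*, its exchange factor, was at 14.1. Sequence shared with other genes was searched for the translation factor members only, and not for the genes of this list. A low value here, such as that of *TSFM*, is therefore uncertain, and the part of shared sequence in it was not tested.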

How the data were processed

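Polyadenylated RNA of 18 samples was sequenced. According to the methods and the labels, the authors aligned reads to GRCh38.p13 with STAR 2.7.2d, counted reads per gene with GENCODE v32 and analysed them with DESeq2 1.34.0. Whether counting used the strand is not given in the sources used here. The mean normalized count is an expression signal, for which the authors divided counts by size factors and took the mean of all samples. For each gene, the values on the rows of the 3 times differed by at most 4.89e-07 of the larger one. The deposited table also holds the authors' own comparisons of LN411 with FN at each time (log2 fold change, standard error, statistic, p-value and adjusted p-value), which were not used. Values per sample were not used here.

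Lengths were those of the Ensembl canonical transcript in GENCODE v44, found for 21861 of 21944 genes (99.6%), matched by Ensembl identifier. Positions are of GENCODE v44 on GRCh38, and start sequences are of RefSeq on GRCh38.p14. The 50-base search used annotated transcripts in the same orientation. All 62 members were listed at all 3 times, and no filter on low values was applied. Members and lists were chosen with earlier results of these data known. The genes named were to be the highest and lowest of each family and complex, paralogs and kinases, and here nearly all members are named. No test was run, since the table gives a mean with no spread and genes are not replicates. The unshared part of a transcript was used only where it had at least 200 bases. Percentiles, division by length and the search for start tracts were tested on simulated data. The versions were matplotlib 3.10.9, pandas 2.3.3, numpy 2.4.6 and Python 3.11.15.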

Additional observations from a re-analysis of the deposited data

How the results depend on the processing

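No paired analysis was possible because the measure used is a mean over all samples, and for the same reason no sample could be left out. With the longest transcript, the median level was 180 for EEF genes and 1279 for EIF genes, their ratio was 0.141 and *EEF1A1* held 21.3% of the summed level. Merged exons gave 114, 799, 0.142 and 16.5%. Without division by length, the medians were 442 and 4770 mean normalized counts, the ratio was 0.0926 and the share of *EEF1A1* was 27.5%. Without enzymes and binding proteins, the medians were 4446 and 2136, the ratio turned to 2.08 and the share was 24.1%, and in settings chosen after seeing the data the ratio of the factors was 2.41 with the longest transcripts, 2.10 with merged exons and 0.766 without division by length. Without the 11 genes that have a listed copy or pseudogene, which include *EEF1A1*, the medians were 206 and 1992 and the ratio was 0.103. With the unshared part of the transcript as length, chosen after seeing the data, the EIF median was 2136, the ratio was 0.138 and the share was 22.7%, and *EIF4A1* had no value. A minimum mean normalized count of 10 removed no member, so it could only change the median of all genes. The number of members above the median of all genes was between 44 and 55 over these settings, with fewer members entering in some of them. The precision of a single level is unknown, since neither depth nor spread was at hand.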
